A study of Mus musculus with 4 samples.

Results

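Migratory dendritic cells (migDCs) were singled out among CD45+ cells of the injured mouse spinal cord as cells with at least 1 UMI of Ccr7 and of Fscn1, at least 1 UMI of at least 2 of Ccl22, Il4i1, Cacnb3, Nudt17 and Samsn1, and no UMI of Cd3e or Cd79a. A UMI (unique molecular identifier) stands for 1 captured RNA molecule. The cells were thus chosen by their own measured counts. The libraries of 3 and 14 days post injury (dpi) held 20407 cells that passed a filter (600 genes or more, mitochondrial UMIs of 10% or less), and 141 of them met this rule. They were 82 of 9528 cells at 3 dpi (0.861%, 95% Clopper-Pearson interval 0.685 to 1.07) and 59 of 10879 cells at 14 dpi (0.542%, 0.413 to 0.699). The sham library made with actinomycin D held 2 such cells of 2203 (0.0908%), of which 1 had 435 UMIs of the macrophage genes Apoe, C1qa, C1qb and C1qc (0.0454% without it), and the sham library of the standard protocol held 0 of 5736, where the limit set by 3 counts is a share of 0.0523%. All intervals here cover counting error only.

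The mice were adult C57BL/6 animals of both sexes, and the injury was a contusion of the thoracic cord. Both injured libraries were dissociated with actinomycin D, which blocks transcription while tissue is digested. Each of the 4 conditions was 1 library of pooled animals, so differences between the time points have no replicate error, and no p-value is given. The headers of the deposited matrices name software version 3.0.1 for 3 dpi and 3.1.0 for 14 dpi, so that version and time point cannot be told apart.

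Dendritic cells take up antigen in tissues, mature, and present it to T cells. On maturation they gain the receptor CCR7, which guides them along its ligands into lymphatic vessels and to lymph nodes, and the actin-bundling protein fascin, encoded by Fscn1, which marks their long processes. Mature cells are also known for high costimulatory molecules, for non-canonical NF-kB signalling through RELB, for chemokines that attract T cells such as CCL22 and CCL17, and for less uptake of new antigen.

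The genes of the rule are given as a description, since they chose the cells. UMIs were summed over the migDCs of a library and scaled to a total of 1000000, which gives counts per that total (CPM). On this scale Ccr7 stood at 999 CPM at 3 dpi and 1551 CPM at 14 dpi. Fscn1 stood at 572 and 1537 CPM, Ccl22 at 294 and 496 CPM, and Il4i1, an enzyme that breaks down phenylalanine, at 275 and 580 CPM. Cacnb3, a calcium channel subunit, stood at 268 and 334 CPM, Nudt17 at 44.3 and 171 CPM, and Samsn1, an adaptor protein, at 603 and 908 CPM. In the 63 and 45 migDCs low in macrophage RNA that are described next, Ccr7 stood at 2215 and 2545 CPM and Fscn1 at 1348 and 2530 CPM. At 3 dpi, 18 migDCs carried 2 of the 5 further markers and 13 carried all 5. At 14 dpi, 5 carried 2 and 26 carried all 5. Just outside the rule, 17 cells at 3 dpi and 5 cells at 14 dpi had Ccr7 and Fscn1 with 1 of the 5, at a median of 1 UMI of Ccr7 in both libraries. Just inside it, cells with 2 of the 5 had a median of 8 and 1 UMIs of Ccr7. A further 10 cells at 3 dpi and 18 at 14 dpi met the marker part of the rule but held a UMI of Cd3e or Cd79a. The sham library of the standard protocol held 36 such cells and that made with actinomycin D 0, so that the count of 0 migDCs in the former rests on leaving out cells with a UMI of Cd3e or Cd79a.

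The migDCs fell into distinct ranges of macrophage RNA. Apoe, C1qa, C1qb and C1qc together, which are typical of microglia and macrophages, had at most 66 UMIs in 63 of the 82 cells at 3 dpi and 180 to 2701 UMIs in the other 19. At 14 dpi, 45 cells had at most 70 of these UMIs and 14 had 287 to 4331. No migDC lay between these ranges, and 100 UMIs was used to part them. The 19 and 14 cells rich in Apoe and C1q had median totals of 27743 and 23167 UMIs, against 5893 and 6754 UMIs in the other migDCs, with ranges of depth that overlapped at 14 dpi, and they held 66.0% and 49.3% of all migDC UMIs. A doublet score (Scrublet) called 13 migDCs at 3 dpi, of which 11 were rich in Apoe and C1q, and 11 at 14 dpi, of which 5 were. In the plot of Apoe and C1q UMIs the rich cells lie above the line. The 17 and 5 cells just outside the rule included 16 and 4 rich cells. Each value below was therefore also computed in the 63 and 45 migDCs low in Apoe and C1q, and what part the rich cells have in the results was not tested.

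**Figure D1:**
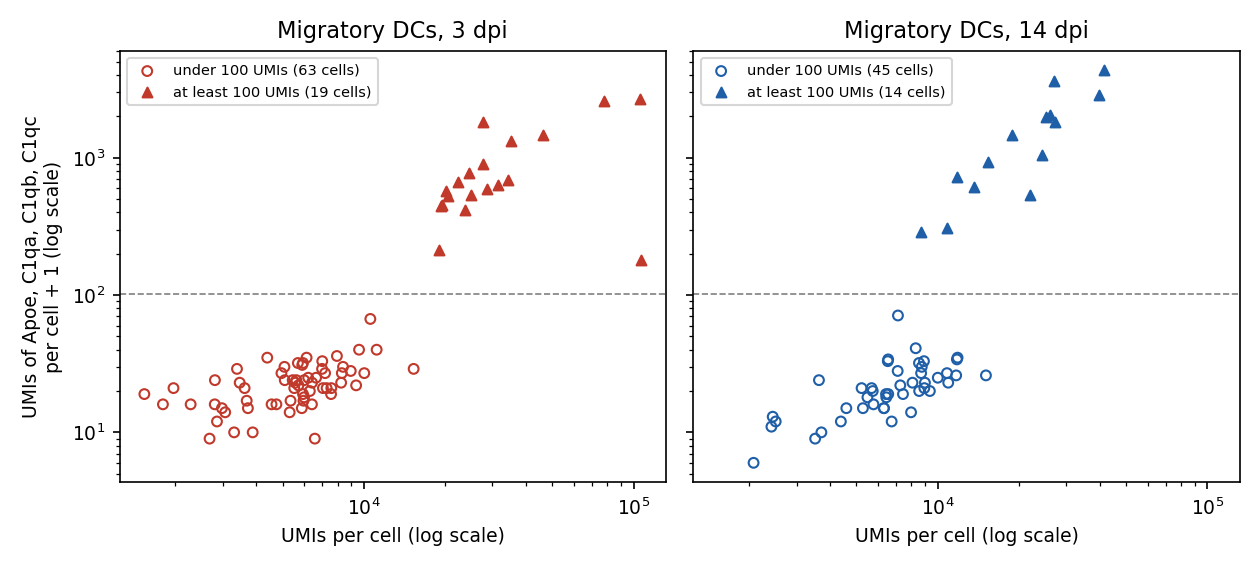
Summed UMIs of Apoe, C1qa, C1qb and C1qc plus 1 per cell (y axis, log scale) against all UMIs per cell (x axis, log scale) in migDCs at 3 dpi (left, 82 cells) and 14 dpi (right, 59 cells), each point 1 cell. The dashed line marks 100 UMIs of these genes, and the 19 and 14 cells above it (triangles), which hold at least 180 and 287 of them, stand apart from the rest (circles).

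The migDC sums held 1082995 UMIs at 3 dpi (median 6368.5 per cell) and 632464 UMIs at 14 dpi (median 8293), so that 1 UMI equals 0.923 and 1.58 CPM. The deepest cell gave 9.85% and 6.55% of these sums. They were compared with Ccr7-negative cells in which H2-Aa, H2-Ab1 and Cd74, of the MHC class II antigen presentation machinery, made up at least 1% of UMIs. These comparison cells numbered 582 at 3 dpi and 623 at 14 dpi and held 6283688 and 7020960 UMIs. Their make-up differed between the libraries. Of them 107 and 226 were rich in Apoe and C1q, and their neutrophil markers summed to 478 and 10334 CPM. Ratios at 3 and 14 dpi thus have unlike references, and the part of this in their differences was not tested. Among cells whose sex could be called from Xist and Y-linked genes, 79.1% of the migDCs were male at 3 dpi (34 male, 9 female) and 30% at 14 dpi (15 male, 35 female). The comparison cells were 62.1% and 34.7% male. The share of male cells thus moved with the time point, and its part in the differences between the time points was not tested. These calls are of cells and do not give the sexes of the pooled animals. The 3 and 14 dpi libraries shared 36 barcodes, of which 2 were migDCs at 3 dpi and none was a migDC in both.

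Other genes known from mature dendritic cells were far higher in migDCs than in comparison cells at both time points. A gene was measured where the pair of sums held at least 20 UMIs and called at a difference of at least 2-fold. At 3 dpi, 1030 of 10049 measured genes (10.2%) were called higher and 781 (7.77%) lower, with a median log2 ratio of 0.08. Of the calls at 3 dpi 56.9% were higher, and this share was 44.9% with TMM scaling, which moves the median to −0.08, and 36.6% without the rich cells. At 14 dpi, 908 of 10145 genes (8.95%) were higher and 1828 (18.0%) lower, with a median of −0.19. Of the 26 other mature DC genes listed, 24 were measured at 3 dpi, and 20 were higher and 0 lower, with a median log2 ratio of 3.12. At 14 dpi all 26 were measured, and 23 were higher and 0 lower, with a median of 3.39. Among cells low in Apoe and C1q, on both sides of the ratio, 11.1% of all measured genes were higher and 19.1% lower at 3 dpi, and 11.1% higher and 26.5% lower at 14 dpi, and the medians of the list were 3.75 and 4.33. The list was drawn up with earlier results of these libraries known.

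Serpinb6b and Serpinb9 encode intracellular serpins, the second an inhibitor of granzyme B. Serpinb6b stood at 197 CPM (95% Poisson interval 171 to 225) in migDCs at 3 dpi and 658 CPM (596 to 724) at 14 dpi, against 1.43 and 4.27 CPM in comparison cells. The log2 ratios were 7.10 (6.15 to 8.25) and 7.27 (6.73 to 7.85). After thinning every cell to 2000 UMIs, Serpinb6b was found in 38.3% of the low migDCs at 3 dpi and 73.3% at 14 dpi, in 0 of 567 comparison cells at 3 dpi and in 0.810% of 617 at 14 dpi. Among T cells (Cd3e with at least 2 of Cd3d, Cd3g and Trac) it was found in 7.0% and 6.34%. Unthinned, Serpinb6b had a UMI in 60.3% and 88.9% of the low migDCs, which is above the T cell shares of 11.97% and 15.7% at similar median depth (5893 and 6754 UMIs per migDC, 4547 and 5450 per T cell). Serpinb9 stood at 91.4 and 362 CPM in migDCs and at 3.50 and 5.98 CPM in comparison cells.

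Tmem123, a membrane glycoprotein, and Relb showed the same pattern. Tmem123 stood at 535 and 1573 CPM in migDCs against 55.7 and 52.7 CPM in comparison cells (log2 ratio 3.26 and 4.90). It was present in 91.7% and 100% of the thinned low migDCs, in 10.9% and 9.56% of comparison cells, and in 10.1% and 10.2% of T cells. Relb stood at 307 and 640 CPM against 31.8 and 41.9 CPM (3.27 and 3.93) and was present in 75% and 84.4% of the thinned low migDCs, 7.23% and 6.81% of comparison cells, and 5.69% and 9.31% of T cells. For both genes the shares in low migDCs stood above those in comparison cells and T cells.

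Tbc1d4, which acts in vesicle traffic, stood at 1187 and 776 CPM in migDCs against 49.8 and 25.1 CPM in comparison cells. Marcksl1, an actin-linked substrate of protein kinase C, stood at 276 and 901 CPM against 53.9 and 84.5 CPM. Socs2, a feedback inhibitor of cytokine receptors, stood at 114 and 373 CPM against 7.16 and 2.42 CPM. These genes were thus higher in migDCs at both time points, whereas Il4ra and Stat6, of the interleukin-4 pathway, lay within 2-fold of the comparison cells at both. Il4ra had log2 ratios of −0.19 and 0.17, and Stat6 of −0.20 and 0.58.

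**Figure D2:**
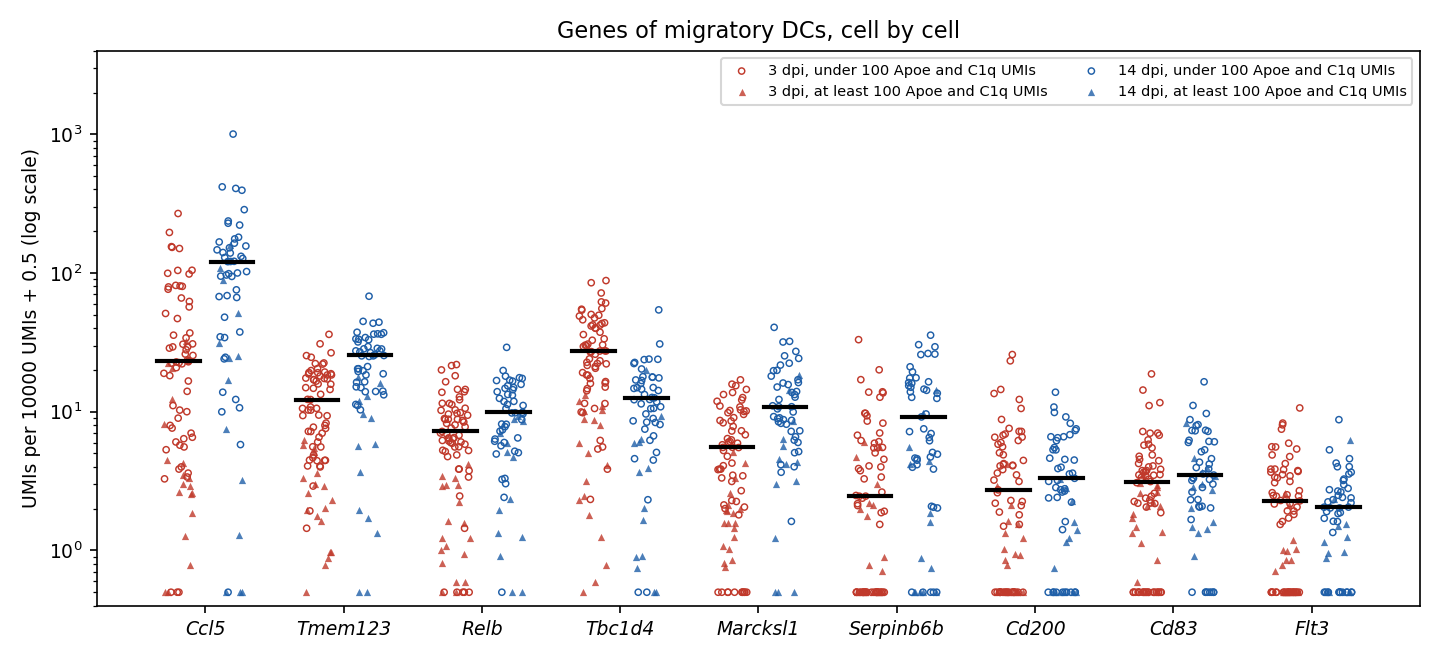
UMIs per 10000 UMIs plus 0.5 (y axis, log scale) of 9 genes in single migDCs at 3 and 14 dpi. Circles are cells low in Apoe and C1q, triangles the rich cells and black bars the median of the low cells, which for Ccl5 is 22.8 at 3 dpi and 120 at 14 dpi.

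Among all genes with at least 100 UMIs in migDCs and comparison cells together in each library (5869 genes), those with the largest ratio at both time points were led by Serpinb6b, Cd200 and Ccl5. They also included Zmynd15, at 137 and 368 CPM against 8.12 and 7.55 CPM, and Birc2, an inhibitor of apoptosis that also restrains non-canonical NF-kB signalling, at 167 and 398 CPM against 14.0 and 33.3 CPM. Ramp3, a partner of the calcitonin-like receptor, stood at 212 and 302 CPM against 15.8 and 2.99 CPM. Slc4a8, a bicarbonate transporter, stood at 97.0 and 169 CPM against 9.07 and 2.42 CPM. The 10 genes ranked highest and the 10 ranked lowest kept their direction and a difference of at least 2-fold under every alternative run.

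Chemokine ligands were led by Ccl5, which attracts T cells and monocytes. Ccl5 stood at 1660 CPM (1584 to 1739) in migDCs at 3 dpi and 7668 CPM (7454 to 7887) at 14 dpi, against 32.8 and 118 CPM in comparison cells. The log2 ratios were 5.66 (5.45 to 5.88) and 6.03 (5.92 to 6.13). T cells held 4584 and 3270 CPM, so that Ccl5 in migDCs at 14 dpi lay above and at 3 dpi below the level of T cells. In the low migDCs alone it stood at 4030 and 12679 CPM. After thinning, Ccl5 was found in 88.3% and 95.6% of the low migDCs, 4.41% and 11.3% of comparison cells, and 71.1% and 59.1% of T cells.

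Of the chemokine ligands, 17 were measured at 3 dpi, with 8 higher and 1 lower (median 0.45), and 16 at 14 dpi, with 6 higher and 5 lower (median 0.25). The count includes Ccl22, a gene of the rule. Ccl5 made up 75% of the summed chemokine CPM at 14 dpi. Ccl17, a ligand of CCR4, stood at 79.4 and 50.6 CPM against 16.4 and 12.7 CPM. At 3 dpi 12 of 82 migDCs held its 86 UMIs, and a single cell held 44 of them. Cxcl16, the ligand of CXCR6 on T cells, stood at 519 and 797 CPM against 239 and 214 CPM, and was found in 66.7% and 84.4% of the thinned low migDCs. Ccl19, a ligand of CCR7 itself, had 0 UMIs in migDCs and comparison cells of both libraries. Leaving out the rich cells gave 4 higher and 3 lower of 16 at 3 dpi, where the share lower was near that of all genes (19.1%), and 5 higher and 7 lower of 13 at 14 dpi.

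Chemokine receptors of recruited monocytes were low. Ccr2, which draws monocytes out of the blood, stood at 37.9 and 14.2 CPM in migDCs against 288 and 649 CPM in comparison cells (log2 ratio −2.93 and −5.51). Ccr1, another inflammatory receptor, stood at 94.2 and 1.58 CPM against 212 and 98.1 CPM. Of the receptors, 3 of 11 were higher and 4 lower at 3 dpi (median −0.40), and 1 of 10 higher and 5 lower at 14 dpi (median −1.16), Ccr7 included. The sum of the list, in which Ccr7 is the most abundant gene, had ratios of the other sign, 0.76 and 0.52. Cx3cr1, the fractalkine receptor of microglia, stood at 487 and 655 CPM in all migDCs and at 78.8 and 28.1 CPM in the low ones.

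Costimulatory and checkpoint genes were mostly higher in migDCs. Of 15 measured at 3 dpi, 8 were higher and 1 lower (median 1.21). At 14 dpi 9 of 14 were higher and 1 lower (median 2.41). Among low cells 9 of 14 were higher and 3 lower at each time (medians 1.88 and 3.08). The shares of all genes lower in these cells were 19.1% and 26.5%. Cd200, an inhibitory ligand for myeloid cells, stood at 168 and 215 CPM against 2.86 and 3.13 CPM (log2 ratio 5.87 and 6.10). Tnfrsf4, which encodes OX40, stood at 48.9 and 123 CPM against 0.955 and 0.712 CPM. Cd274, which encodes PD-L1, stood at 90.5 and 126 CPM against 21.2 and 14.5 CPM. All 3 genes were thus higher at both times.

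Among the classical activating molecules, Cd83 stood at 190 and 302 CPM against 64.1 and 53.4 CPM, and Cd40, the receptor for CD40L of T cells, at 31.4 and 128 CPM against 10.7 and 25.5 CPM. Cd80 stood at 26.8 and 41.1 CPM against 15.6 and 6.27 CPM. Cd86, the other ligand of CD28, was not called at either time, at 102 and 125 CPM against 169 and 90.7 CPM (log2 ratio −0.73 and 0.46). In the full sums Havcr2, which encodes TIM-3, was the gene called lower at 3 dpi, at 31.4 against 79.6 CPM. Lgals9, a galectin, was that called lower at 14 dpi, at 61.7 against 124 CPM. Both inhibitory genes named last were lower still in the low migDCs, at 13.6 CPM of Havcr2 at 3 dpi and 12.5 CPM of Lgals9 at 14 dpi.

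Of the NF-kB pathway genes, Relb, Rel, Nfkb2, Traf1, Birc2 and Map3k14 were among those higher in migDCs at both times. Of 17 measured genes 9 were higher at 3 dpi (median 1.01) and 11 at 14 dpi (median 1.35), and 0 were lower at either time. Nfkb2, the partner of RELB, stood at 78.5 and 152 CPM against 32.3 and 42.0 CPM, and Rel at 221 and 539 CPM against 70.5 and 127 CPM. Traf1, a signalling adaptor, stood at 601 and 447 CPM against 127 and 72.1 CPM, and Map3k14, the kinase NIK, at 184 and 123 CPM against 78.0 and 28.3 CPM. Nfkb1 and Rela, of the canonical arm, lay within 2-fold of the comparison cells at both times, with log2 ratios of 0.28 and −0.54 for Nfkb1 and 0.36 and 0.56 for Rela.

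The promoters of the NF-kB list were searched on both strands, in the 250 bases before the RefSeq start, for the kappaB letters, which are GGGA, any base, then TTTCC. They were found in 2 of the 14 genes with an entry (14.3%) and in 0.414% of 27025 genes. Both are shown with the match in capitals, on the gene's strand and in build GRCm38.p6, as Nfkb2 (chr19:46305680-46305744, plus strand) and Nfkbia (chr12:55492648-55492706, minus strand), where the match reads as its reverse complement.
Nfkb2: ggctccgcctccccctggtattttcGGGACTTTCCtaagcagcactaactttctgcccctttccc
Nfkbia: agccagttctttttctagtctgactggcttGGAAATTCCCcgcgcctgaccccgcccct
Nfkbia, which encodes an inhibitor of NF-kB, stood at 663 and 745 CPM in migDCs against 460 and 359 CPM in comparison cells (log2 ratio 0.53 and 1.05). A match to the letters is a description of the sequence and no binding was measured.

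**Figure D3:**
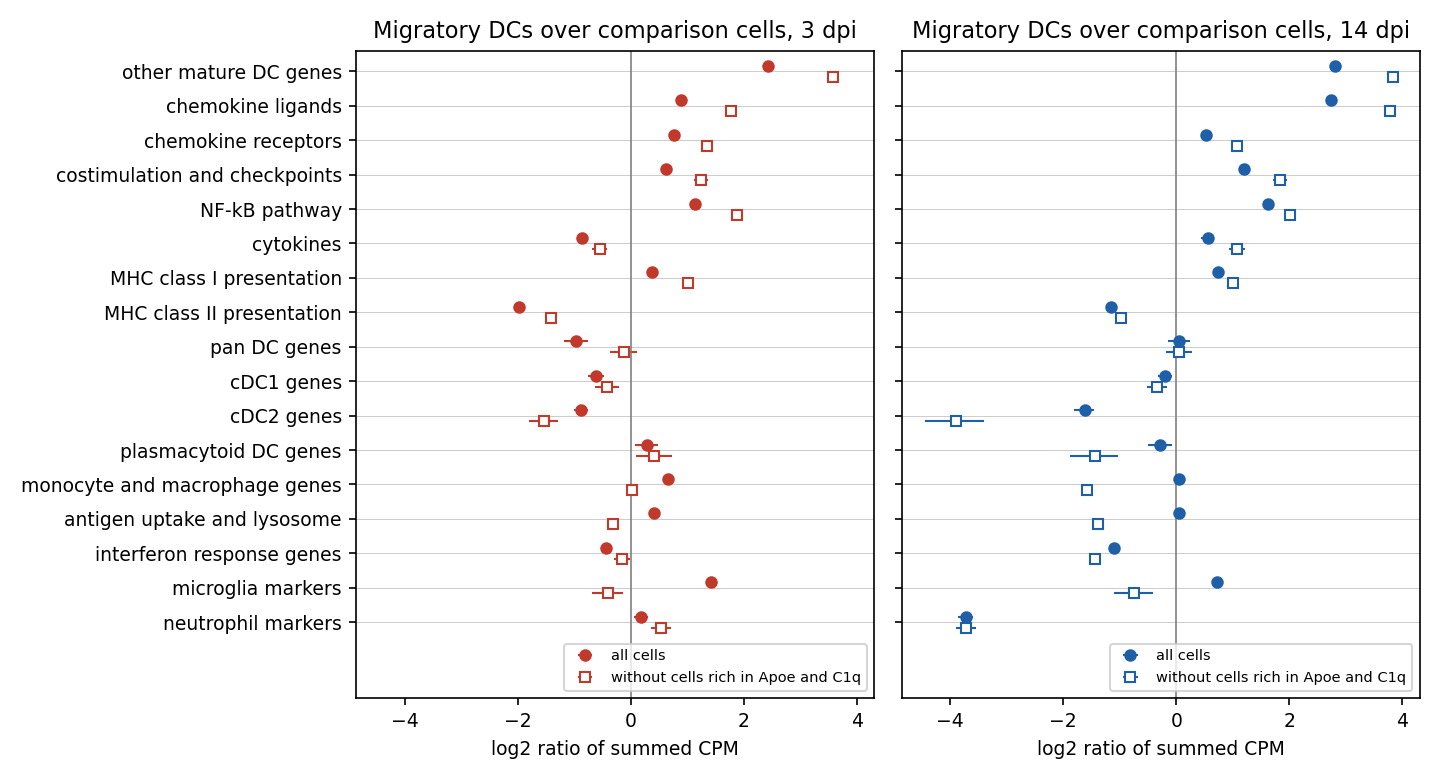
Log2 ratio of the summed CPM of each gene list in migDCs over Ccr7-negative MHC-II cells (x axis) at 3 and 14 dpi, with 95% intervals that cover counting error only. Filled points are all cells and open squares the cells low in Apoe and C1q. The mature DC list lies to the right at both times, at summed levels of 5229 against 975 CPM and 9256 against 1316 CPM.

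Most measured lineage genes of the conventional dendritic cells cDC1 and cDC2 were lower in migDCs than in comparison cells. Of 9 measured cDC1 genes, 6 were lower at each time, with a median log2 ratio of −2.34 at 3 dpi and −2.68 at 14 dpi. The sums of the list lay within 2-fold, at 407 against 623 CPM and 879 against 1005 CPM (log2 ratio −0.61 and −0.19). Irf8 made up 65.3% and 67.4% of the migDC sums and had UMIs in 59 of 82 and 44 of 59 migDCs. Xcr1, the chemokine receptor that defines cDC1, stood at 0.923 and 3.16 CPM, which are 1 and 2 UMIs, against 26.7 and 31.2 CPM. Clec9a, their receptor for dead cells, had 0 UMIs at 3 dpi and stood at 4.74 CPM at 14 dpi, against 14.0 and 30.3 CPM. Batf3, the transcription factor on which cDC1 depend, was in contrast called higher at 3 dpi and lay just under 2-fold at 14 dpi, at 81.3 and 185 CPM against 36.4 and 95.1 CPM.

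Of the cDC2 genes, 6 of 9 were lower at each time, with medians of −1.10 and −3.99. Cd209a had 0 UMIs in migDCs of both libraries, against 45.0 and 321 CPM in comparison cells, which places it at least 4.02 and 6.08 lower on the log2 scale. Clec10a and Mgl2, both lectins of cDC2, stood at 8.31 and 4.62 CPM at 3 dpi against 108 and 79.7 CPM, and both had 0 UMIs at 14 dpi against 147 and 97.6 CPM. Of 5 genes shared by dendritic cells, 0 were higher and 2 lower at 3 dpi (median −0.11), and 1 higher and 2 lower at 14 dpi (median 0.65). Flt3, their growth factor receptor, stood at 84.9 and 109 CPM against 54.1 and 68.9 CPM, and Zbtb46 at 16.6 and 61.7 CPM against 15.0 and 17.1 CPM. Itgax, which encodes CD11c, stood at 13.9 and 33.2 CPM against 192 and 95.9 CPM. Xcr1, Clec9a and Cd209a were thus at or near 0, and of the shared genes Itgax was lower at both times and Zbtb46 higher at 14 dpi.

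Cell by cell, 44 of the 63 low migDCs at 3 dpi and 41 of 45 at 14 dpi held no UMI of Xcr1, Clec9a, Cadm1, Naaa, Itgae, Tlr3, Cd209a, Clec10a, Mgl2, Clec4a2 or Clec4a4. Cells with UMIs of the cDC2 genes alone numbered 13 of 63 at 3 dpi and 1 of 45 at 14 dpi, and cells with UMIs of the cDC1 genes alone numbered 4 and 3. A UMI of Flt3 or Zbtb46 was found in 43 of 63 and 37 of 45. Batf3 was found in 34 and 35 cells and Irf4, a factor of cDC2, in 5 and 12, with both in 3 and 9. Most migDCs could therefore not be placed in either subset by these genes at their depth. Of the plasmacytoid genes 1 of 6 was higher and 0 lower at 3 dpi (median −0.16). At 14 dpi 1 of 8 was higher and 3 lower (median −0.57). Among low cells 2 of 6 were higher and 1 lower, and 1 of 8 higher and 5 lower (median −1.80). Spib, a factor of plasmacytoid and mature cells, stood at 47.1 and 64.8 CPM against 3.82 and 7.83 CPM. In the full sums Siglech, a defining gene of plasmacytoid cells, lay within 2-fold of the comparison cells (log2 ratio −0.26 and 0.35). At 14 dpi it made up 40.4% of the 313 CPM of this list in all migDCs. In the low migDCs the list summed to 150 CPM, of which Spib made up 60.4%. The level of Siglech at 14 dpi thus came in large part from the rich cells.

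MHC class II genes were lower than in comparison cells, which were chosen for them, so that the ratios are a description of that choice. H2-Eb1, which the choice did not name, stood at 1366 and 2792 CPM against 5513 and 5369 CPM. Ciita, the master regulator of class II genes, stood at 36.9 and 22.1 CPM against 233 and 219 CPM. H2-DMb1, which helps to load peptide, stood at 71.1 and 77.5 CPM against 694 and 726 CPM.

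No class I gene was called lower in the full sums. Of 19 measured genes, 5 were higher at 3 dpi (median 0.34) and 6 at 14 dpi (median 0.65), with 0 lower. H2-Q7 and H2-Q6, non-classical class I genes whose near-identical sequences can split reads, stood at 282 and 579 CPM against 50.4 and 123 CPM, and at 88.6 and 212 CPM against 11.8 and 23.5 CPM. Psme2, a proteasome activator, stood at 518 and 1104 CPM against 204 and 295 CPM, whereas Tap1, the peptide transporter, lay at 80.3 and 150 CPM against 81.0 and 158 CPM. Among low cells 9 of 19 were higher and 2 lower at 3 dpi, and 8 higher and 2 lower at 14 dpi. Those lower were Calr and Pdia3, chaperones of the endoplasmic reticulum, at both times.

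Interferon response genes were more often lower than higher in migDCs against comparison cells. Of 24 measured genes 13 were lower and 1 higher at each time, with medians of −1.11 and −1.06. Irf7, the interferon regulatory factor that amplifies the response, stood at 6.46 and 96.4 CPM against 44.1 and 351 CPM, and Ifi27l2a at 171 and 383 CPM against 302 and 1898 CPM. Gbp2, a guanylate-binding protein, was the gene that was higher, at 51.7 and 157 CPM against 11.0 and 59.7 CPM. Among low cells 9 of 23 were lower and 3 higher at 3 dpi, and 17 of 24 lower and 1 higher at 14 dpi. Of all genes in these cells 19.1% and 26.5% were lower. The sum of the list had log2 ratios of −0.44 and −1.10 in all cells and of −0.16 and −1.44 in low cells. It was thus past 2-fold at 14 dpi only.

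The genes with the lowest ratios at both time points included Ifitm6, of a family of antiviral membrane proteins, at 5.54 and 7.91 CPM against 225 and 308 CPM, and Ifitm1, at 377 and 30 CPM against 4384 and 579 CPM. Kmo, an enzyme of tryptophan breakdown, stood at 3.69 CPM at 3 dpi and had 0 UMIs at 14 dpi, against 54.3 and 62.4 CPM.

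Markers of other cell types were measured in the same sums. Microglia markers summed to 1762 CPM in migDCs and 661 CPM in comparison cells at 3 dpi, and to 3434 and 2071 CPM at 14 dpi, with 6 and 2 of 8 genes higher. Low migDCs summed to 310 and 234 CPM, and the log2 ratio at 3 dpi turned from 1.41 to −0.40. T and NK cell markers summed to 47.1 and 66.4 CPM, against 40.9 and 59.3 CPM, with Cd3e at 0 by the rule. B cell markers summed to 50.8 and 61.7 CPM, with Cd79a at 0 by the rule. Neutrophil markers summed to 543 CPM at 3 dpi against 478 CPM in comparison cells, and to 781 CPM at 14 dpi against 10334 CPM in comparison cells, led by S100a8 and S100a9.

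Genes of macrophages and lysosomes were counted with and without the rich cells, which were set apart by Apoe and C1q, so that lower levels of these genes without them are fixed in part by that choice. Of 16 monocyte and macrophage genes 4 were higher and 1 lower at 3 dpi (median 0.51), and 1 of 15 higher and 5 lower at 14 dpi (median −0.15). Without the rich cells 0 were higher and 4 lower at 3 dpi, and 1 of 14 higher and 7 lower at 14 dpi. Spp1, which was not part of the choice, stood at 3394 and 96.7 CPM in the low migDCs and at 3830 and 102 CPM in T cells. Of 16 genes of antigen uptake and lysosomes 3 were higher and 0 lower at 3 dpi, and 3 higher and 5 lower at 14 dpi, and without the rich cells 2 were higher and 4 lower, and 2 higher and 8 lower. Ly75, the uptake receptor DEC-205, had the largest ratios of the list, at 53.6 and 166 CPM in migDCs against 2.71 and 8.97 CPM in comparison cells. Il7r, a receptor also used as a marker of innate lymphoid cells, stood at 156 and 101.2 CPM against 77.3 and 19.9 CPM.

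The remaining lists were compared in the same way. Of 19 glycolysis and hypoxia genes 1 was higher and 1 lower at 3 dpi, and 1 higher and 2 lower at 14 dpi. Among low cells 1 of 19 was higher and 6 lower at 3 dpi, and 1 of 17 higher and 9 lower at 14 dpi (median −1.18). Of 20 immediate early genes 2 were higher and 3 lower at 3 dpi, and 3 higher and 11 lower at 14 dpi (median −1.16). Of the cytokines, 3 of 9 were higher and 1 lower at 3 dpi, and 2 of 10 higher and 3 lower at 14 dpi, and among low cells 2 of 8 were higher and 3 lower, and 5 of 9 higher and 3 lower (median 1.02). Red cell and glial markers summed to 60.9 and 107.5 CPM, against 64.8 and 81.6 CPM.

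Between the time points, migDCs at 14 dpi were higher in interferon response and class I genes and lower in immediate early and glycolysis genes than at 3 dpi. Of 7089 measured genes 595 (8.39%) were called higher and 1093 (15.4%) lower at 14 dpi, with a median of −0.09. Without the rich cells the counts were 342 of 3812 (8.97%) and 395 (10.4%), with a median of 0.05. Of the calls 35.2% were higher in all cells and 46.4% without the rich cells.

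Interferon response genes were higher at 14 dpi for 20 of 21 measured genes, with 0 lower and a median of 1.65. Among low migDCs 10 of 14 were higher and 0 lower, with a median of 1.21. They summed to 872 and 2671 CPM. Isg15, a ubiquitin-like protein, stood at 76.6 and 256 CPM (log2 ratio 1.74, 1.35 to 2.14), with UMIs in 24 of 82 and 31 of 59 cells. Its thinned shares in the low cells lay closer together, at 15% and 20%, and 1 cell held 37.3% of its UMIs at 3 dpi.

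Bst2, the antiviral protein tetherin, stood at 156 and 471 CPM (1.59). Irf7 stood at 6.46 and 96.4 CPM (3.90, 2.77 to 5.27), with UMIs in 4 of 82 and 17 of 59 cells. Ifit1 and Ifit3, which bind viral RNA, stood at 2.77 and 36.4 CPM and at 3.69 and 60.1 CPM, while in the low migDCs Ifit3 stood at 5.43 and 6.24 CPM. Of Ifit2, at 4.62 and 96.4 CPM, 72.1% of the UMIs at 14 dpi came from 1 cell. In the low migDCs Ifit2 had 2 and 9 UMIs (5.43 and 28.1 CPM). The difference in Ifit3 was thus not seen in the low migDCs and that in Ifit2 rested there on few UMIs, while Irf7, Isg15, Bst2 and Xaf1 were higher in the low migDCs as well.

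The same list was higher at 14 dpi in every population compared, at 24 of 24 genes in comparison cells (median 2.18), 24 of 24 in microglia-marked cells (2.01), 22 of 24 in cDC1-marked cells (2.08), and 18 of 24 in both cDC2-marked cells (1.35) and T cells (1.42). The median of 1.65 in all migDCs lay within this range, and that of 1.21 in the low migDCs below it. Of all measured genes, 10.3% were higher and 5.94% lower at 14 dpi in comparison cells, 15.1% and 13.5% in microglia-marked cells, 9.73% and 5.80% in cDC1-marked cells, 12.5% and 4.48% in cDC2-marked cells, and 8.66% and 5.29% in T cells. The difference was thus found in each of these populations, and other cells of the libraries were not compared.

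The promoters of the interferon list were searched in the same way for GAAA, any 2 bases, then GAAA, the core of the interferon-stimulated response element. They were found in 9 of the 17 genes with an entry (52.9%) and in 3.46% of 27025 genes, and matches can overlap each other. Those of Isg15 (chr4:156200845-156200926, minus strand), Ifit1 (chr19:34640755-34640843, plus strand) and Gbp2 (chr3:142620574-142620643, plus strand) are shown with the matched letters in capitals, on the gene's strand, as examples among the genes whose levels are given here.
Isg15: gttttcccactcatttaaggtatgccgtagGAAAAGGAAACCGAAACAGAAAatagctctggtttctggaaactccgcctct
Ifit1: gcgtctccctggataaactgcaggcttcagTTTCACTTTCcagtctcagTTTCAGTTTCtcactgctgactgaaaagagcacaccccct
Gbp2: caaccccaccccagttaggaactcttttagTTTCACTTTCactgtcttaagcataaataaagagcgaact
In Ifit1 and Gbp2 the match lies on the other strand and reads as its reverse complement. Gbp2 stood at 51.7 and 157 CPM in migDCs (log2 ratio 1.60).

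MHC class I genes were higher at 14 dpi for 12 of 19, with 0 lower and a median of 1.09, and summed to 7628 and 17490 CPM. B2m, the light chain, stood at 1692 and 4691 CPM (1.47), with medians of 27.7 and 52.7 per 10000 UMIs in the low migDCs. H2-D1, a classical heavy chain, stood at 814 and 3123 CPM (1.94), and H2-T23, the ligand of an inhibitory NK receptor, at 88.6 and 438 CPM (2.30). Without the rich cells 4 of 19 were higher and 0 lower, with a median of 0.63. Comparison cells had 7 of 19 higher and a median of 0.97. MHC class II genes were higher for 3 of 11 in all migDCs (median 0.62) and for 0 of 10 in the low ones (0.15).

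Ccl5 was higher at 14 dpi by a log2 ratio of 2.21 (2.13 to 2.29) in all migDCs and by 1.65 in the low ones. In single low migDCs it had a median of 22.8 per 10000 UMIs at 3 dpi (0 to 268) and 120 at 14 dpi (0 to 1003), with UMIs in 60 of 63 and 44 of 45 cells, so that the cells of the libraries overlapped in range. The deepest contributor at 14 dpi held 580 UMIs of Ccl5, 14.3% of the sum of the low cells. In the rich migDCs its median was 2.52 and 20.1. Ccl5 was also higher at 14 dpi in comparison cells, at 32.8 and 118 CPM, whereas T cells had 4584 and 3270 CPM, and the difference in direction was not tested.

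Of the other mature DC genes 12 of 25 were higher at 14 dpi and 1 lower (median 0.96), and without the rich cells 9 of 24 were higher and 2 lower (0.74). Comparison cells had 5 of 22 higher and 2 lower (0.37). Serpinb6b (log2 ratio 1.74), Marcksl1 (1.71), Tmem123 (1.56), Serpinb9 (1.99) and Socs2 (1.72) were higher in all cells and past 2-fold in the low ones. Apol7c, of the apolipoprotein L family, stood at 24.9 and 141 CPM (2.50), with UMIs in 7 of 82 and 16 of 59 cells. Relb was past 2-fold in all cells (1.06) but not in the low ones (0.43). Tbc1d4 (−1.16) and Eno3, a muscle-type enolase (−1.53), were lower in the low migDCs at 14 dpi. The genes that share high levels in migDCs thus did not all differ in 1 direction between the time points.

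Cd40 stood at 31.4 and 128 CPM (log2 ratio 2.03, and 2.06 in the low migDCs) and had UMIs in 24 of 82 and 30 of 59 cells. Of the 14 costimulatory and checkpoint genes measured between the time points, 2 were higher and 0 lower (median 0.49). The second was Tnfrsf4, at 48.9 and 123 CPM (1.33), which lay just under 2-fold in the low migDCs (0.97). Cd200, Cd274 and Cd86 lay within 2-fold in both sets of cells.

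Il12b, the shared subunit of interleukins 12 and 23, had among the largest differences between the time points. It stood at 20.3 CPM (12.7 to 30.8) at 3 dpi and 639 CPM (578 to 704) at 14 dpi, a log2 ratio of 4.97 (4.36 to 5.67). At 3 dpi 7 of 82 migDCs had a UMI of Il12b and at 14 dpi 18 of 59, and 2 cells gave 75.2% of the 404 UMIs at 14 dpi. In the low migDCs the share of cells was 3.17% at 3 dpi and 31.1% at 14 dpi, and after thinning 1.67% and 15.6%. None of the 582 and 623 comparison cells had a UMI, and of T cells 0 and 1 had one. The level at 14 dpi thus came mostly from 2 cells, but the share of migDCs with Il12b was larger there as well.

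Cxcl9, an interferon gamma-inducible chemokine, had 0 UMIs at 3 dpi and 155 at 14 dpi, which lie in 6 of 59 cells and to 89.0% in 1 cell. All 50 UMIs of Xcl1 at 14 dpi came from 1 rich cell, and 94.6% of the UMIs of Mfge8, a gene named after its values were seen, from 1 low cell. Tm4sf1 and Mgp, which rank among the genes lower at 14 dpi, came at 3 dpi wholly from 1 rich cell each, with 205 and 154 UMIs. Of Pdpn, 63.3% of the UMIs at 3 dpi came from 1 cell. Lag3 and Cst7 stood at 1.85 and 136 CPM and at 23.1 and 319 CPM in all migDCs, but at 0 and 12.5 CPM and at 8.15 and 18.7 CPM in the low ones. These ranked genes describe single cells or the rich cells rather than the migDCs at large.

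Immediate early genes, which respond within minutes to stimulation or to dissociation, were lower at 14 dpi for 12 of 19 measured genes, with 0 higher and a median of −2.07. In the low migDCs 13 of 19 were lower, with a median of −2.05. Fos stood at 717 and 44.3 CPM, with UMIs in 72 of 82 and 12 of 59 cells, and Jun at 806 and 136 CPM. Socs3 stood at 163 and 15.8 CPM. Of 2 genes with ratios above 0, neither was called, and Nr4a3, an orphan nuclear receptor, was 1 of them, at 71.1 and 133 CPM. It stood at 18.8 and 2.71 CPM in comparison cells. Medians of the list were −1.04 in comparison cells, −0.73 in T cells and −2.44 in microglia-marked cells, so that lower values at 14 dpi were found in each of these populations too. Both libraries were made with actinomycin D.

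Glycolysis and hypoxia genes were lower at 14 dpi for 10 of 18 measured genes and higher for 1, with a median of −1.15, and in the low migDCs for 6 of 11 with a median of −1.26. Gapdh stood at 2556 and 1104 CPM (−1.21) and Ldha, lactate dehydrogenase, at 492 and 176 CPM (−1.49). Pkm, pyruvate kinase, stood at 846 and 296 CPM and Tpi1 at 334 and 149 CPM. Comparison cells had 7 of 19 lower (median −0.75) and microglia-marked cells 12 of 20 lower (−1.29).

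**Figure D4:**
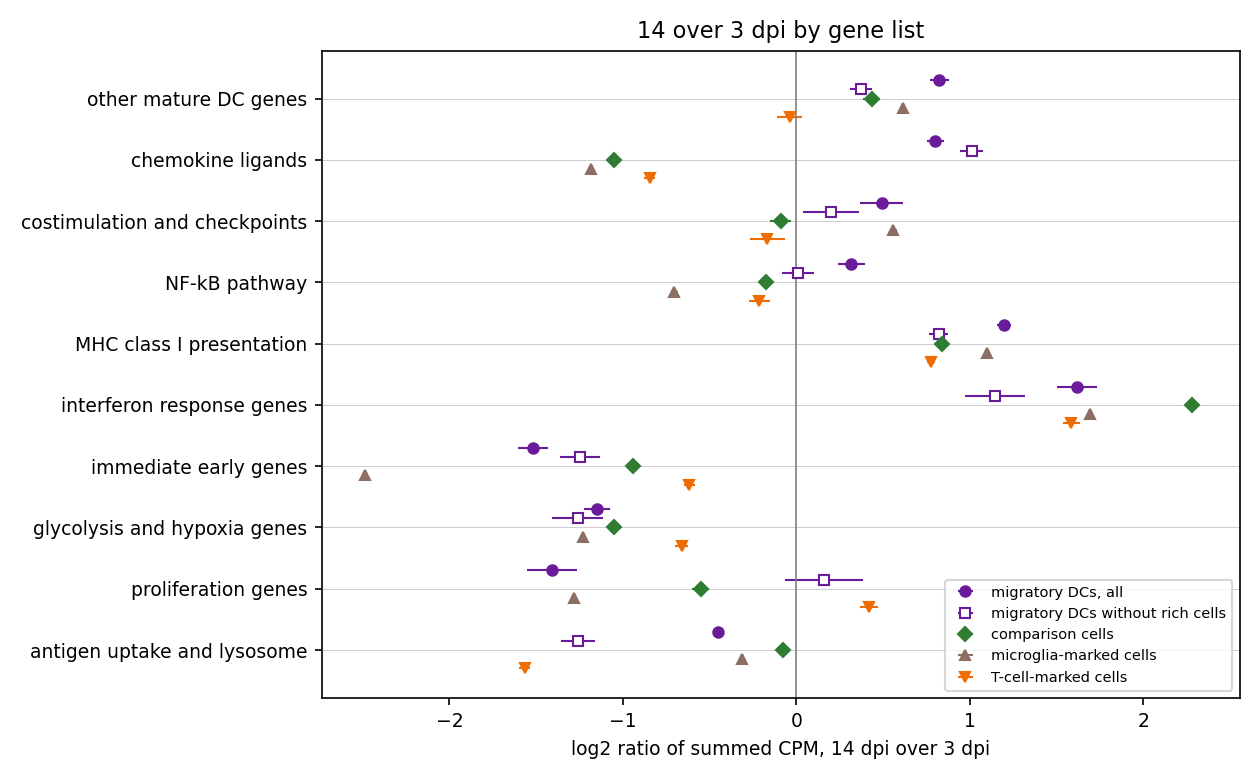
Log2 ratio of the summed CPM of 10 gene lists at 14 over 3 dpi (x axis) in all migDCs, migDCs low in Apoe and C1q, Ccr7-negative MHC-II cells, microglia-marked cells and T cells, with 95% intervals that cover counting error only. Interferon response genes lie to the right in all 5 populations and immediate early genes to the left, while the sum of proliferation genes in migDCs is −1.41 in all cells and 0.16 in the low ones.

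Of 9 measured cytokines 3 were higher and 3 lower at 14 dpi, and Il1b was among those lower. Of the chemokines, Cxcl2, which attracts neutrophils, stood at 691 and 4.74 CPM (log2 ratio −7.19, and −6.28 in the low migDCs), against 782 and 77.9 CPM in comparison cells and 594 and 28.9 CPM in T cells. Il1b stood at 658 and 80.6 CPM (−3.03) and had UMIs in 74 of 82 and 17 of 59 cells. The level of Cxcl2 in migDCs at 3 dpi was thus near that of T cells of the same library, and the part of free RNA in it was not tested. Of 16 measured chemokine ligands 7 were lower and 2 higher (median −0.79), while the log2 ratio of their sum, most of which is Ccl5, was of the other sign (0.80).

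Proliferation genes were lower at 14 dpi for 11 of 12 (median −2.82), led by cells rich in Apoe and C1q. Mki67, a marker of cycling cells, had 190 UMIs at 3 dpi, of which 63.2% came from 2 cells, and 3 UMIs at 14 dpi. In the low migDCs Mki67 had 6 and 3 UMIs, 2 of the 12 genes could be measured, 0 were called, and the summed level was 908 and 1014 CPM. At 3 dpi 5 of 12 were higher than in comparison cells in all migDCs, and 0 of 12 were higher and 5 lower in the low ones. Monocyte and macrophage genes were lower at 14 dpi for 6 of 16 in all migDCs, and lysosome genes likewise for 6 of 16. The sums of these lists in all migDCs had log2 ratios of 0.21 and −0.45, so that the macrophage sum was higher at 14 dpi. In the low migDCs their sums had log2 ratios of −1.61 and −1.26, against −1.11 and −1.57 in T cells, −0.02 and −0.19 in comparison cells low in Apoe and C1q, and 0.59 and −0.31 in microglia-marked cells.

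Within each library the migDCs varied in antigen presentation. The summed H2-Aa, H2-Ab1 and Cd74 made up 0.0146% to 5.65% of UMIs at 3 dpi (median 0.433%) and 0.00793% to 7.03% at 14 dpi (median 0.635%). At least 1% was reached by 26 of the 63 low migDCs at 3 dpi and 20 of 45 at 14 dpi. Ciita was found in 14 of those 26 cells and in 1 of the other 37 at 3 dpi, and in 6 of 20 and 2 of 25 at 14 dpi. A UMI of Ciita was thus found in a smaller share of the cells with little class II RNA. At 14 dpi most cells with at least 1% held none either, and 0 UMIs at this depth do not show absence.

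Among the low migDCs, Ccl5 was higher in cells with less class II RNA. Its median per 10000 UMIs was 14.8 in the 26 cells with at least 1% and 30.3 in the other 37 at 3 dpi, and 81.3 and 138.8 in the 20 and 25 cells at 14 dpi. Spearman's rank correlation between both measures was −0.35 over 63 cells and −0.54 over 45 cells. The cells share a library and a common total of UMIs, so that these values are descriptions. Tmem123 had rank correlations of −0.11 and −0.33 with class II RNA, and Relb of 0.07 and 0.34, while for the rule genes Fscn1 it was −0.28 and −0.17 and Ccr7 −0.03 and −0.36, so that of these genes Relb had the other sign. The rich migDCs had less class II RNA (medians of 0.211% and 0.471% against 0.461% and 0.859%) and less Ccl5 than the low ones. Ccl5 itself had a rank correlation with the UMIs of a cell of −0.28 at 14 dpi. The rank correlation of class II RNA with the UMIs of a cell was 0.27 and 0.08.

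**Figure D5:**
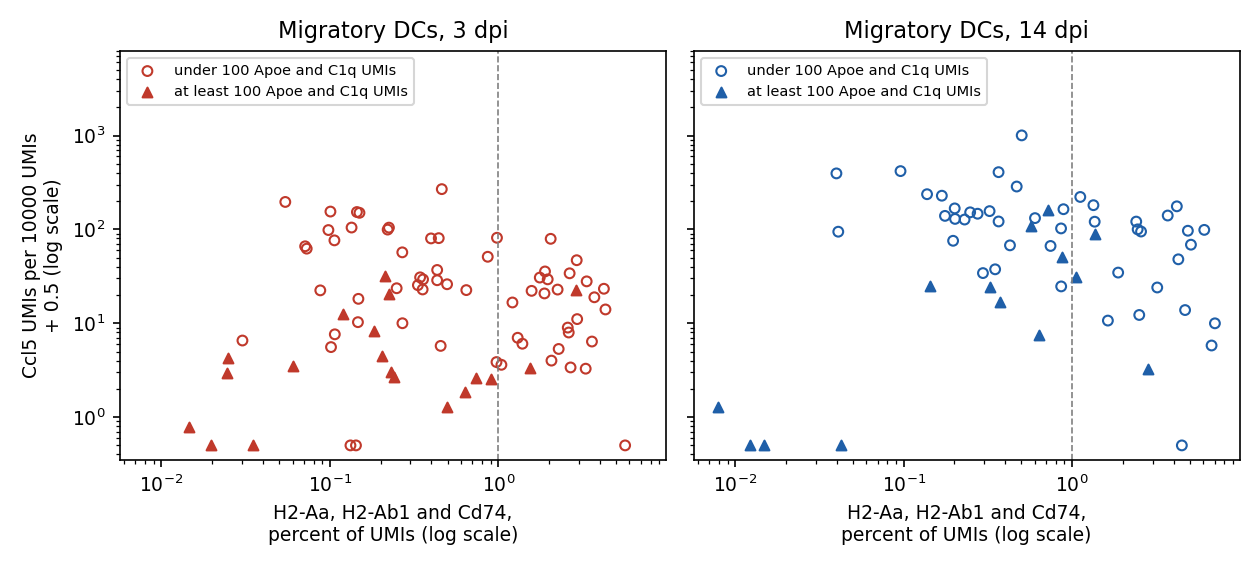
Ccl5 UMIs per 10000 UMIs plus 0.5 (y axis, log scale) against the share of UMIs from H2-Aa, H2-Ab1 and Cd74 in percent (x axis, log scale) in single migDCs at 3 and 14 dpi, each point 1 cell, with circles for cells low and triangles for cells rich in Apoe and C1q. The dashed line marks 1%, and the cell of highest Ccl5 in each library, at 268 and 1003 per 10000, lies to its left.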

How the data were processed

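CD45+ cells were sequenced as 4 libraries, 1 per condition, with the 10× Chromium 3′ method. The submitters' processing notes name Cell Ranger and mm10. The authors deposited raw UMI counts, as 1 matrix of genes by barcodes for each library, and these counts are the sole unit used. The 3 and 14 dpi libraries held 10763 and 11631 barcodes, of which 9528 and 10879 cells (122517647 and 128995168 UMIs) passed the filter.

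UMIs were summed per library over migDCs and over comparison cells (Ccr7 at 0, no UMI of Cd3e or Cd79a) and scaled to CPM. Ratios carry exact conditional, sums exact Poisson and shares exact Clopper-Pearson intervals at 95%, for counting error only. A count of 0 was set to a limit of 3 counts. A gene was measured with 20 UMIs in a pair of sums and called at 2-fold. The method was tested on simulated sums drawn from a Poisson model, the same model that the intervals assume. That test does not cover genes whose UMIs come mostly from few cells. Shares were compared after thinning cells to 2000 UMIs (seed 1). Microglia-marked cells had at least 2 of P2ry12, Tmem119, Sall1 and Gpr34, cDC1-marked cells Xcr1 or Clec9a and cDC2-marked cells Cd209a, each with a further marker of its type among the comparison cells. T cells were kept where low in Apoe and C1q. Doublets were scored with Scrublet (scanpy 1.11.5) at 0.8% per 1000 cells, which called 726 and 947 cells, and were kept. edgeR 4.0.16 (R 4.3.3) gave TMM factors as an alternative. Python 3.11.15, numpy 2.4.6, scipy 1.17.1 and pandas 2.3.3 were used.

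Named genes were those of the gene lists, which share a few genes, and the 10 highest and 10 lowest ratios, taking the weaker of both time points for the comparison cells. Ranks required 100 UMIs in migDCs and comparison cells together in each library, or 50 UMIs in migDCs of both time points together, and left out rule, mitochondrial, ribosomal, haemoglobin, immunoglobulin, sex-linked and lineage marker genes. The members and lists were chosen with earlier results of these data known, and the limit on Apoe and C1q was set after the data were seen. Promoters came from RefSeq (GRCm38.p6), and 17 of 24 interferon and 14 of 17 NF-kB genes matched by symbol. A few genes are not reported here.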

Additional observations from a re-analysis of the deposited data

Results flagged for a closer look

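For 9 genes the log2 ratio of migDCs over Ccr7-negative MHC-II cells was at least 1 at 3 dpi and at most −1 at 14 dpi, which put them here, and the difference between the time points was not tested. Of the proliferation genes, Mki67 had ratios of 1.17 and −2.95, Top2a of 1.05 and −3.78, Cdca8 of 1.39 and −1.21, and Birc5 of 1.15 and −1.87, the last a bound since it had 0 UMIs in migDCs at 14 dpi. Ube2c, a ubiquitin-conjugating enzyme of mitosis, had ratios of 2.25 and −4.02. Of the macrophage genes, Mrc1, the mannose receptor, had ratios of 1.22 and −5.86, Pf4, a chemokine of platelets and macrophages, of 1.29 and −2.64, and Ccl24, an eosinophil attractant, of 2.25 and −1.28. The ratios at 14 dpi rest on few UMIs in migDCs. These were 9 of Pf4, 4 of Cdca8, 3 of Mki67, 2 of Top2a and 1 each of Ube2c, Mrc1 and Ccl24. Among cells low in Apoe and C1q, the ratios at 3 dpi were −1.81 for Mki67, −2.09 for Top2a, −0.37 for Cdca8, −1.60 for Birc5, −0.38 for Ube2c, −0.18 for Mrc1, 0.24 for Pf4 and −1.92 for Ccl24. At 14 dpi the ratios among these cells were −2.63 for Mki67, −4.5 for Top2a, −0.82 for Cdca8, −3.82 for Ube2c and −3.53 for Mrc1. Birc5 had a bound of −1.49, and no fold could be given for Ccl24. The ratio of Pf4 at 14 dpi was 2.33 among these cells, from 3 UMIs in migDCs. Cd79b, a B cell gene, had ratios of 1.02 and −1.03 from 14 and 3 UMIs in migDCs, and of 1.7 and −0.7 among low cells.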

How the results depend on the processing

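No paired analysis was possible because each condition was 1 library, and for the same reason no replicate could be left out. The share of migDCs at 3 dpi was 0.672% with at least 3 of the 5 further markers, 0.526% after thinning to 2000 UMIs and 0.661% without cells rich in Apoe and C1q, an alternative added after the data were seen, and the 14 dpi share was 0.397% after thinning. Between the time points 331 genes were higher and 520 lower with at least 50 UMIs, 1055 and 1982 with at least 1 UMI, and 342 and 395 without rich cells. Against comparison cells at 3 dpi, 607 genes were higher with at least 50 UMIs and 1787 with at least 1, while 1685 were lower where each cell weighs the same and 1726 without rich cells. At 14 dpi 604 were higher with at least 50 UMIs and 1418 with at least 1. The share of calls that were higher was 56.9% at 3 dpi, and 44.9% with TMM, 42.0% with equal weight of cells, 67.0% with at least 1 UMI, 46.0% with at least 3 markers and 36.6% without rich cells. It was 33.2% at 14 dpi and 43.7% with at least 1 UMI. Without rich cells 17 of 75 list sums changed sign. Of sums past 2-fold these were proliferation genes between the time points (to 0.16) and microglia markers at 3 dpi (to −0.40). The others lay within 2-fold, among them macrophage genes between the time points (0.21 to −1.61), and uptake and lysosome genes (0.42 to −0.32 at 3 dpi and 0.04 to −1.39 at 14 dpi) and microglia markers at 14 dpi (0.73 to −0.75) against comparison cells, as well as glycolysis genes (0.14 to −0.31 and 0.04 to −0.58). Between the time points 7 sums were past 2-fold, of which 3 stayed past it with equal weight of cells or without rich cells (interferon response, immediate early and glycolysis genes) and 5 with Scrublet calls removed, while the sum of class I genes went from 1.2 to 0.84 and 0.82. Of the 20 genes ranked between the time points, those for which a fold could be given kept their direction under each alternative. Without rich cells these were 16, of which 15 stayed past 2-fold. The limit of 20 UMIs was not applied to this count. Some of the 16 thus rest on fewer UMIs in the low migDCs, such as Lag3 at 0 and 12.5 CPM. The cause of these changes was not tested. Depth limits the low migDCs, where 3812 genes could be measured between the time points, against 7089 in all migDCs.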
